A study of Mus musculus with 4 samples.

Results

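The replication-dependent histone genes encode the linker histone H1 and the core histones H2A, H2B, H3 and H4 that package newly made DNA. They were followed here in WW6 mouse embryonic stem cells after knockdown of Kdm5b, a demethylase of lysine 4 on histone H3. A locus was taken as a member when its RefSeq identifiers mapped to a symbol of the Hist1, Hist2, Hist3 or Hist4 clusters, or to the newer names H1f1 to H1f6, H2ac, H2bc, H3c and H4c followed by a number. This gave 66 of the 23697 loci in the deposited table. They divided into 5 H1, 18 H2A, 17 H2B, 12 H3 and 13 H4 loci and 1 locus in which the table joined H1f4 and H2bc6. Which loci belong follows from their names, though the group was taken up with earlier results of these data known. By mm9 coordinates, 53 lay on chromosome 13, 10 on chromosome 3, 2 on chromosome 11 and 1 on chromosome 6.

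RNA was sequenced from 4 libraries. Knockdown A and knockdown B came from cells transiently transfected with small interfering RNA against Kdm5b, and control A and control B from cells that received small interfering RNA against GFP, which the labels call a mock control. All cells were of a mixed strain background, mostly 129/Sv (about 75%) with C57/B6J and some SJL, grew without feeder cells and with leukemia inhibitory factor, and carried no other stated change. Whether the letters A and B stand for separate cultures is not stated, and the p-values therefore reflect only how far these libraries scatter, possibly for technical reasons. Kdm5b itself stood at 22.7 and 31.1 FPKM in the knockdown libraries, against 99.7 and 145 FPKM in the controls, or 22.0% of the control mean, so message remained in the knockdown cells (log2 fold change -2.14, SE 0.30, limma adjusted p = 0.562). FPKM counts fragments relative to transcript length in kilobases and to the library's mapped total. The libraries were of unequal depth, with knockdown A, knockdown B and control A at an estimated 76.6%, 98.6% and 102% of control B. All 9 embryonic stem cell markers passed the filter on low values. Fibroblast markers (2 of 7 passed) summed to 0.258 and 1.55 FPKM in the knockdown libraries, against 9.25 and 2.92 FPKM in the controls. Acta2 and Thy1 made up most of it, Lum was at 0 in every library, and no collagen marker reached 1 FPKM. Endoderm markers (4 of 8 passed) summed to 2.59 and 2.91 FPKM in the knockdown libraries, against 10.8 and 15.0 FPKM in the controls, with Ttr at 0 in all 4. The part of either set in the histone values was not tested.

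Replication-dependent histone genes are transcribed mainly in S phase, when new nucleosomes are needed. Their messages have no introns and end in a short stem-loop in place of a poly(A) tail. The stem-loop is bound by Slbp, and cleavage just behind it is directed by the U7 small nuclear ribonucleoprotein. Most of the genes lie in clusters, where Npat coordinates transcription, and many H2A and H2B genes stand head to head over a shared promoter. Embryonic stem cells divide fast and spend much of their cycle in S phase. The RNA here was depleted of ribosomal RNA and copied with random hexamers as well as oligo-dT, so messages without a poly(A) tail could be copied. In RNA from a bulk culture, fewer cells in S phase and less histone RNA per cell cannot be told apart.

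The stem-loop is a feature of these messages that the choice by name did not use. It was searched for in the GENCODE M21 transcripts as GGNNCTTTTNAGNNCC with arms of 6 bases that pair fully around a loop of 4 bases. A match was present in 42 of the 64 member genes. Over all 55341 annotated genes it was present in 50, or 0.0903%. Of the 22 member genes without a match, 16 had under 100 bases of annotated sequence outside the coding part, as did 10 of the 42 genes with a match. The forms differed by class. In H4 the arms were rich in G and C (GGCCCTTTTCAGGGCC in 7 genes, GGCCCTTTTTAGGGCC in 2 and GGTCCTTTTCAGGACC in 2), whereas all 9 matching H2A genes, all 9 matching H2B genes and all 8 matching H3 genes had the GGCTCT arm. Below, arms are in capitals, with loop and 5 flanking bases on each side in lower case, written as DNA of the transcript strand. The genes were picked to show each form of arm and loop, with H4c4 and H3c6 the most abundant of their classes.
H4c4 (H4): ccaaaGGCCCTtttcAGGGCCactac
H4c2 (H4): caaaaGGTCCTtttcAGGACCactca
H4c9 (H4): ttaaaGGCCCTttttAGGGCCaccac
H3c6 (H3): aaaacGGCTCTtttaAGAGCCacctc
H2ac4 (H2A): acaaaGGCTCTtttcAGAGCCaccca
H2ac20 (H2A): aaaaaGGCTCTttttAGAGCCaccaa
H1f2 (H1): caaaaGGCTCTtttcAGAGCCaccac

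Promoter motifs were unevenly spread over the classes. RefSeq (GRCm38.p6) gave the 250 bases before the start for 59 member genes, and 5 short motifs were searched for on both strands, counting a match also where it overlapped another motif. CCAAT, a box found in many strong promoters, was present in all 6 H1, all 16 H2A and all 15 H2B genes, in 8 of 10 H3 genes and in 3 of 12 H4 genes, against 37.5% of all 27025 genes in that table. TATAAA was present in 49.2% of members and 14.3% of all genes. The octamer ATTTGCAT, a site for POU factors such as Oct-1, was present in 7 of 16 H2A and 7 of 15 H2B genes and in none of the other classes, against 1.81% of all genes. GTCCG, the core of the element through which Hinfp acts on H4 genes, was present in 11 of 12 H4 and 7 of 16 H2A genes, against 21.3% of all genes. AAACACA, known as the H1 box, was present in 5 of 6 H1 genes, against 7.20% of all genes. A match describes letters only. Where an H2A and an H2B gene stand head to head, their 250-base stretches can overlap. The same match can then count for both classes, as in the 177 bases between H2ac12 and H2bc12, so the H2A and H2B counts are not independent. The sequences below have those motifs in capitals. They are the whole stretch between the starts of the divergent pair H2ac12 and H2bc12, whose RNAs lay on opposite sides of the controls, and the stretches just before H2bc18 and H4c4, the most abundant members, and before H1f5, which holds the H1 box.
H2ac12 and H2bc12 (chr13:22035644-22035820, plus strand): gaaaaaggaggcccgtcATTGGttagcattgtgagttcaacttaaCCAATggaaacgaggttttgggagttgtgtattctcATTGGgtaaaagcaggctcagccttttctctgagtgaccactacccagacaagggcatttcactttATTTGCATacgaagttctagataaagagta
H2bc18 (chr3:96269600-96269699, plus strand): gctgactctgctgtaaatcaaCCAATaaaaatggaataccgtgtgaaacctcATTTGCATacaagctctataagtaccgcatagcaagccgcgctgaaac
H4c4 (chr13:23581468-23581567, plus strand): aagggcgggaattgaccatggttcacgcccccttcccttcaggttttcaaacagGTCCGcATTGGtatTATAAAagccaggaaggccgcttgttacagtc
H1f5 (chr13:21780626-21780775, minus strand): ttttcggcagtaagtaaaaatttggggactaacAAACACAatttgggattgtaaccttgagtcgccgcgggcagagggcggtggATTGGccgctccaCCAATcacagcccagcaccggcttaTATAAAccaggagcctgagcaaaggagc

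Most histone loci were highly expressed in these cells. Of the 66 members, 45 averaged 100 FPKM or more across the libraries and 9 averaged 1000 FPKM or more. No member was at 0 in all libraries, and 60 were above 0 in every library. Members listed at 0 numbered 3, 3, 4 and 1 in knockdown A, knockdown B, control A and control B, whereas of all 23697 loci 11953, 8609, 8131 and 8281 were at 0 in those libraries. Only loci averaging 1 FPKM or more were tested, which kept 63 members and left out 3. Of these 3, H2ac7 was listed at 2.41 FPKM in control B and at 0 in the other libraries, and the 2 loci of H4bc24, a symbol whose older name Hist1h2br is that of an H2B gene, stayed under 0.5 FPKM throughout.

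**Figure D1:**
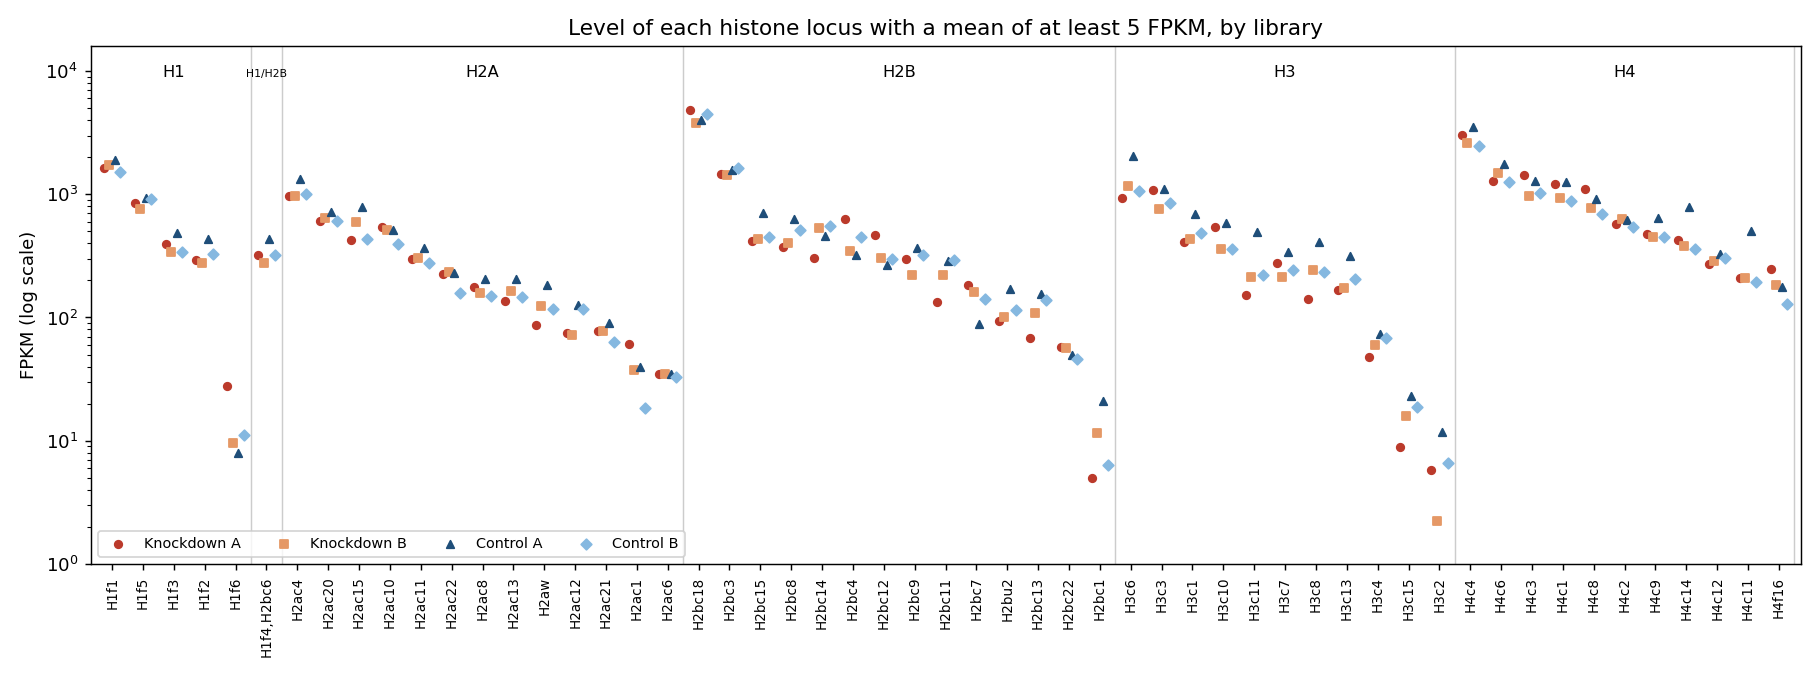
FPKM (log axis) of the 55 histone loci that averaged 5 FPKM or more, grouped by class and ordered by mean, with 1 symbol per library. H2bc18 and H4c4 stand highest, and control A is the top symbol at most H3, H2A and H4 loci.

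Knockdown of Kdm5b was not accompanied by a change in any histone gene that passed the test. Of 11784 loci tested with limma on log2(FPKM + 1), 4 (0.0339%) had a Benjamini-Hochberg adjusted p under 0.05, and 0 of the 63 members did. Adjusted p-values of the members ran between 0.918 and 0.999, and the median standard error of their log2 fold changes was 0.27. At an unadjusted p under 0.05, 4 members were lower in the knockdown and 0 were higher, where 1.49% of all loci were lower and 0.967% higher. The values nonetheless leaned to the lower side. The log2 fold change was negative for 44 of 63 members, against 52.9% of all loci tested, and the members' median was -0.21, against -0.03. With upper-quartile scaling, which moved the median of all loci to -0.27, 54 of 63 members were on the lower side and their median was -0.48. Both knockdown libraries lay below both controls at 22 of 63 members (34.9%, against 16.9% of all loci) and above both at 5 (7.94%, against 15% of all loci). Among the 45 members averaging 100 FPKM or more, 34 were on the lower side, with a median of -0.20. Of all 885 such loci 34.0% were, with a median of 0.10. Both knockdown libraries lay below both controls at 15 of the 45 (33.3%, against 11.8% of the 885). They lay above both at 3 (6.67%, against 19.5% of the 885). Over the 885 control A was the lowest library at 48.5%. Without control A, 28 of 61 members were on the lower side and the median was 0.03.

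**Figure D2:**
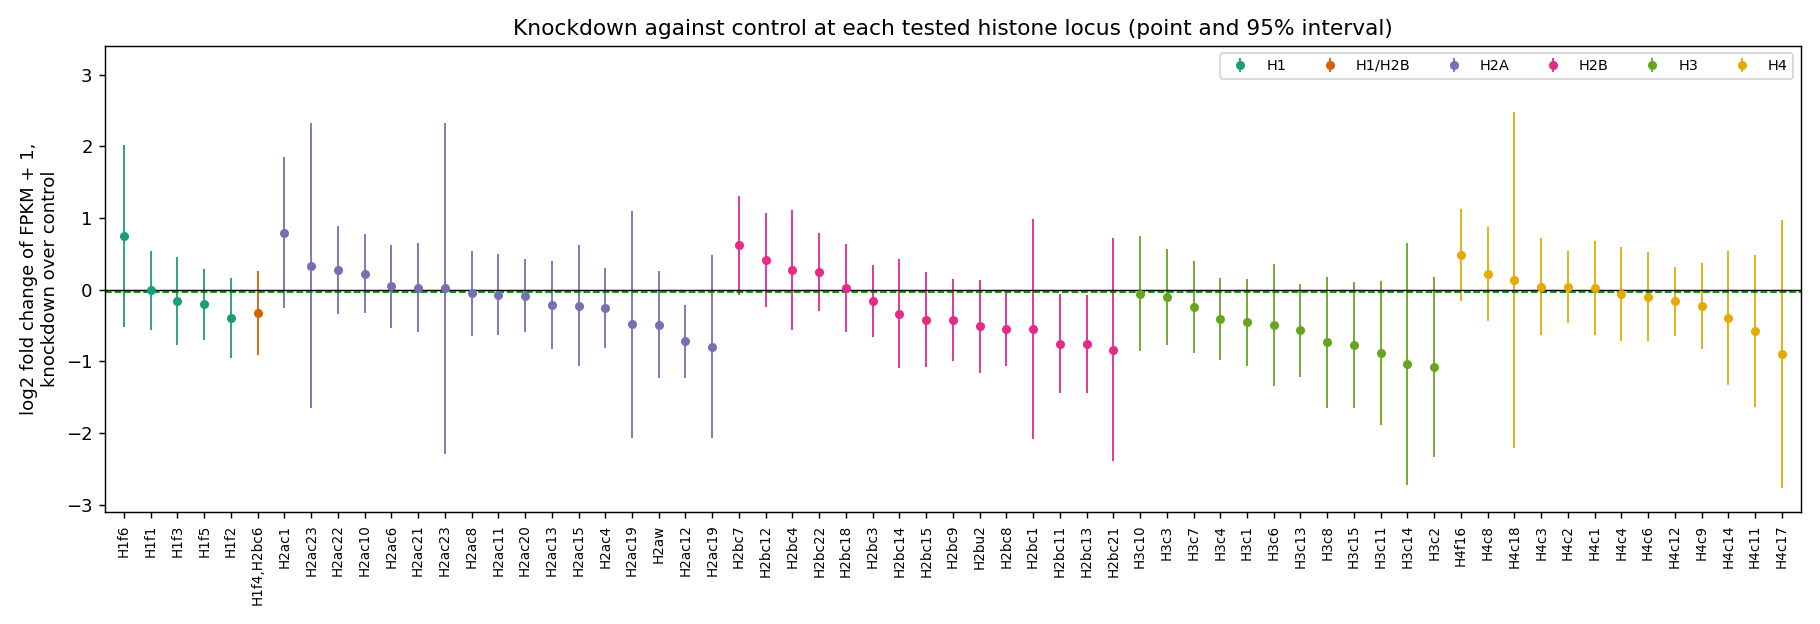
Log2 fold change of FPKM + 1, knockdown over control, at each of the 63 tested histone loci, with the 95% interval from limma as a bar. The dashed line is the median of all loci tested (-0.03), and all 12 H3 points lie below 0 with every H3 interval reaching 0.

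The H3 genes stood lowest as a class. All 12 H3 loci had a negative log2 fold change, with a median of -0.53, and both knockdown libraries lay below both controls at 7 of them (58.3%, against 16.9% of all loci). Their summed level was 3770 and 3647 FPKM in the knockdown libraries, against 6105 and 3757 FPKM in the controls, a ratio of means of 0.752. The sums show that both knockdown libraries were close to control B and that control A stood apart. Without control A, 9 of 12 were on the lower side with a median of -0.28, and the ratio of sums was 0.987. Quantile normalization put 11 of 12 on the lower side. None passed the test, and all 12 intervals included 0.

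H3c6 (chr13:23653824-23654234 in mm9, as are all locus positions that follow, and a locus as long as its coding sequence) was the most abundant H3 gene, with 926 and 1177 FPKM in the knockdown libraries, against 2039 and 1066 FPKM in the controls. Its control A value was the only one set apart, and the groups overlapped. H3c3 had 1092 and 755 FPKM in the knockdown libraries, against 1112 and 849 FPKM in the controls. H3c10 had 546 and 358 FPKM after knockdown and 585 and 361 FPKM in the controls. Both of these had overlapping groups, with knockdown A near control A.

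H3c1 had 407 and 436 FPKM in the knockdown libraries, against 695 and 482 FPKM in the controls, a log2 fold change of -0.46 (SE 0.25, unadjusted p = 0.114). H3c11 had 151 and 213 FPKM in the knockdown libraries, against 496 and 222 FPKM in the controls, a log2 fold change of -0.88 (SE 0.41, unadjusted p = 0.0738). H3c13, a gene of the chromosome 3 cluster, had 168 and 172 FPKM in the knockdown libraries, against 314 and 204 FPKM in the controls, a log2 fold change of -0.57 (SE 0.27, unadjusted p = 0.0756). In all 3 the groups did not overlap, but the gap between knockdown B and control B was small beside the gap between the 2 controls.

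H3c8 had 142 and 244 FPKM after knockdown and 410.1 and 235 FPKM in the controls. H3c7 had 275 and 215 FPKM after knockdown and 343 and 241 FPKM in the controls. In both, knockdown B or knockdown A lay above control B. H3c4 had 47.5 and 59.3 FPKM in the knockdown libraries, against 73.2 and 68.3 FPKM in the controls, a log2 fold change of -0.41 (SE 0.24, unadjusted p = 0.135), with the 2 controls close together.

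The remaining H3 loci were low. H3c15 had 8.85 and 15.8 FPKM in the knockdown libraries, against 23.2 and 18.9 FPKM in the controls, a log2 fold change of -0.77 (SE 0.36, unadjusted p = 0.0738). H3c2 had 5.75 and 2.24 FPKM in the knockdown libraries, against 11.8 and 6.61 FPKM in the controls, a log2 fold change of -1.08 (SE 0.51, unadjusted p = 0.0793), the most negative value of any member. H3c14 had 0 and 0.868 FPKM after knockdown and 1.39 and 2.28 FPKM in the controls, a log2 fold change of -1.04 (SE 0.69, unadjusted p = 0.184). The H3c2 values stand for an estimated 4 and 2 fragments after knockdown and 11 and 6 in the controls, so counting alone leaves wide error.

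**Figure D3:**
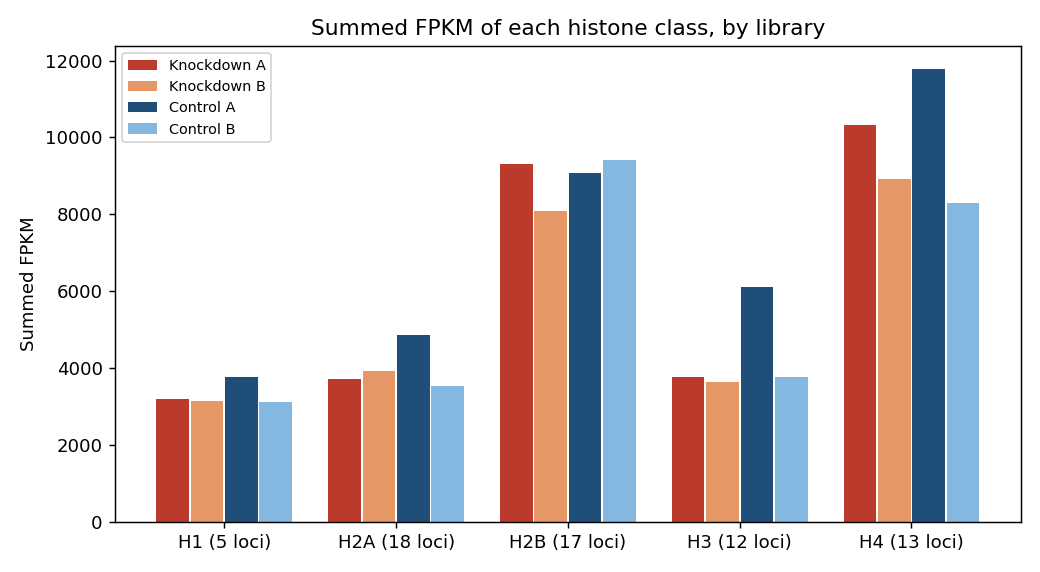
Summed FPKM of all loci of each histone class in each library, with bars from 0. Control A is the tallest bar for H1, H2A, H3 and H4 (6105 against 3647 to 3770 in the other libraries for H3), and for H2B the tallest is control B.

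The H2B genes held the largest single level of the family. H2B loci summed to 9310 and 8082 FPKM in the knockdown libraries, against 9069 and 9422 FPKM in the controls, a ratio of 0.941. Of the 15 tested H2B loci, 10 were on the lower side, with a median log2 fold change of -0.42. Unlike the other core histones, their level in control A was not above that in control B (median log2 difference -0.05). Both knockdown libraries were below both controls at 8 loci (53.3%, against 16.9% of all loci) and above both at 3 (20.0%, against 15% of all loci). Without control A, 9 of 14 were on the lower side and the median was -0.14.

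H2bc18 (chr3:96073623-96074115) alone gave 51.9% and 46.6% of the H2B sum in the knockdown libraries and 43.8% and 47.3% in the controls. It had 4832 and 3769.6 FPKM in the knockdown libraries, against 3974 and 4457 FPKM in the controls, a log2 fold change of 0.02 (SE 0.25, unadjusted p = 0.938). The 4 libraries overlapped fully. H2bc3 had 1454 and 1423 FPKM in the knockdown libraries, against 1564 and 1641 FPKM in the controls, a log2 fold change of -0.16 (SE 0.20, unadjusted p = 0.476), and its knockdown values lay just below both controls.

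Of the H2B genes, 3 had an unadjusted p under 0.05. H2bc13 had 68.7 and 108 FPKM in the knockdown libraries, against 154 and 139 FPKM in the controls, a log2 fold change of -0.76 (SE 0.28, unadjusted p = 0.0351). H2bc11 had 134 and 220.3 FPKM in the knockdown libraries, against 286 and 295 FPKM in the controls, a log2 fold change of -0.75 (SE 0.28, unadjusted p = 0.0372). H2bc8 had 373 and 402 FPKM in the knockdown libraries, against 628 and 509 FPKM in the controls, a log2 fold change of -0.54 (SE 0.22, unadjusted p = 0.0445). In H2bc13 and H2bc11 the 2 controls were closer to each other than to either knockdown library. Without knockdown A their log2 fold changes were -0.43 and -0.40. The limma adjusted p was 0.918 for all 3, and both knockdown libraries lay below both controls in each.

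H2bc15 had 416 and 430.1 FPKM in the knockdown libraries, against 711 and 449 FPKM in the controls, a log2 fold change of -0.42 (SE 0.27, unadjusted p = 0.175). H2bc9 had 297 and 222 FPKM in the knockdown libraries, against 367 and 322 FPKM in the controls, a log2 fold change of -0.42 (SE 0.24, unadjusted p = 0.122). H2bu2, on chromosome 11, had 94.5 and 102 FPKM in the knockdown libraries, against 172 and 114 FPKM in the controls, a log2 fold change of -0.51 (SE 0.26, unadjusted p = 0.101). These 3 lay below both controls, with knockdown B of H2bc15 close to control B.

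Other H2B genes lay above. H2bc12 (chr13:22127756-22128136) had 466 and 302 FPKM in the knockdown libraries, against 265 and 298 FPKM in the controls, a log2 fold change of 0.42 (SE 0.27, unadjusted p = 0.17). H2bc7 had 184 and 162 FPKM in the knockdown libraries, against 89.0 and 141 FPKM in the controls, a log2 fold change of 0.62 (SE 0.28, unadjusted p = 0.0701). H2bc22 had 57.7 and 56.2 FPKM in the knockdown libraries, against 50.0 and 45.9 FPKM in the controls, a log2 fold change of 0.24 (SE 0.22, unadjusted p = 0.319), a value that was -0.02 with upper-quartile scaling. In the first of these knockdown B was close to control B, and none passed the test.

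H2bc14 had 302 and 529 FPKM after knockdown and 461 and 552 FPKM in the controls. H2bc4 had 626 and 343 FPKM after knockdown and 324 and 450.1 FPKM in the controls. Their groups overlapped, and in each the 2 knockdown libraries were farther apart than the controls. H2bc21 had 0.375 and 0.583 FPKM after knockdown and 1.31 and 2.01 FPKM in the controls, a log2 fold change of -0.84 (SE 0.64, unadjusted p = 0.236). H2bc1, which encodes the testis histone TH2B, had 4.95 and 11.5 FPKM after knockdown and 21.0 and 6.31 FPKM in the controls, an estimated 3 and 9 against 17 and 5 fragments.

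The joined locus of H1f4, a linker histone gene, and H2bc6, an H2B gene, spanned 38889 bases. It had 320.3 and 275 FPKM in the knockdown libraries, against 431 and 321 FPKM in the controls, a log2 fold change of -0.32 (SE 0.24, unadjusted p = 0.222). Its FPKM cannot be divided between the 2 genes. Control B and knockdown A were nearly equal.

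The H2A class had a median log2 fold change close to that of all loci, and its side of 0 depended on control A. H2A loci summed to 3714 and 3933 FPKM in the knockdown libraries, against 4845 and 3531 FPKM in the controls, a ratio of 0.913 that was 1.08 without control A. Of the 17 tested loci, 10 were on the lower side, with a median log2 fold change of -0.07. The median was 0.11 without control A (5 of 16 lower), -0.36 without control B (12 of 16 lower) and -0.33 with upper-quartile scaling (13 of 17 lower). Both knockdown libraries were below both controls at 3 loci (17.6%, against 16.9% of all loci) and above both at 1 (5.88%, against 15% of all loci). Control A was above control B at 16 of the 17.

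H2ac12 (chr13:22127035-22127421) had 74.6 and 71.9 FPKM in the knockdown libraries, against 126 and 117 FPKM in the controls, a log2 fold change of -0.72 (SE 0.21, unadjusted p = 0.0137). The 2 knockdown libraries were close to each other, as were the 2 controls, and this was the smallest unadjusted p of any member, with an adjusted p of 0.918. Its control B was near its control A. Of its coding windows of 50 bases, 96.4% also occur in another gene, so fragments may be shared with other H2A genes.

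H2ac4 was the most abundant H2A gene, with 967 and 971 FPKM in the knockdown libraries, against 1329.5 and 1009.8 FPKM in the controls, a log2 fold change of -0.26 (SE 0.23, unadjusted p = 0.304). H2ac20 of the chromosome 3 cluster had 605 and 639.6 FPKM after knockdown and 719 and 608 FPKM in the controls. H2ac15 had 423 and 597 FPKM after knockdown and 794 and 434 FPKM in the controls. In all 3 control A was highest.

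H2ac10 had 541 and 509.9 FPKM after knockdown and 513 and 394 FPKM in the controls. H2ac11 had 299.8 and 307 FPKM after knockdown and 368 and 275 FPKM in the controls. H2ac22 had 225 and 235 FPKM after knockdown and 228 and 158 FPKM in the controls. In each of them control B was the lowest library. H2ac8 had 177 and 159 FPKM after knockdown and 204 and 148 FPKM in the controls. H2ac13 had 137 and 163 FPKM after knockdown and 204 and 147 FPKM in the controls. H2aw, which lies beside H2bu2 on chromosome 11, had 87.5 and 124 FPKM after knockdown and 182 and 117 FPKM in the controls. These 3 again had their highest value in control A and overlapping groups.

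H2ac21 had 77.0 and 78.3 FPKM after knockdown and 90.6 and 63.8 FPKM in the controls. H2ac6 had 34.7 and 35.0 FPKM after knockdown and 34.5 and 32.9 FPKM in the controls, a log2 fold change of 0.05 (SE 0.24, unadjusted p = 0.854), which placed both knockdown libraries above both controls by a margin far inside the error. H2ac1, which encodes the testis histone TH2A, had 60.7 and 37.3 FPKM after knockdown and 39.4 and 18.3 FPKM in the controls. Its highest value was in knockdown A and its lowest in control B. H2ac19 had 2 loci in the table. The first had 2.4 and 1.87 FPKM after knockdown and 6.6 and 1.52 FPKM in the controls, and the second had 1.6 and 1.25 FPKM after knockdown and 4.2 and 2.39 FPKM in the controls, a log2 fold change of -0.79 (SE 0.52, unadjusted p = 0.18). Likewise H2ac23 had 2 loci. They had 0 and 2.25 FPKM after knockdown and 2.17 and 0 FPKM in the controls at the first and 1.93 and 0.751 FPKM after knockdown and 0 and 2.22 FPKM in the controls at the second, which is 0 to 3 estimated fragments in each library.

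Of 13 pairs of H2A and H2B loci within 1000 bases of each other, 10 had both loci tested, with gaps of 179 to 812 bases. H2bc21 stands in 2 of the 10. In 7 pairs the 2 log2 fold changes had the same sign, and in 3 they had opposite signs. The pair H2ac12 and H2bc12 was of the second kind, with -0.72 ± 0.21 for H2ac12 and 0.42 ± 0.27 for H2bc12 (log2 fold change ± SE). The locus models of this pair lay 334 bases apart in mm9. The stretch printed above is the 177 bases between the RefSeq starts in GRCm38. That stretch holds CCAAT in either orientation at 3 places and the octamer once, beside H2bc12. The other opposite-sign pairs were H2ac1 at 0.80 with H2bc1 at -0.55, and H2ac21 at 0.03 with H2bc21 at -0.84. H2ac20 lies between H2ac21 and H2bc21, so that pair is near by distance only and not made of direct neighbors. Among the same-sign pairs, H2ac8 and H2bc8 had -0.05 and -0.54, and H2ac22 and H2bc22 had 0.27 and 0.24.

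The H4 genes did not lean to either side. H4 loci summed to 10311 and 8922 FPKM in the knockdown libraries, against 11791 and 8292 FPKM in the controls, a ratio of 0.958. Of the 13 loci, 7 were on the lower side, with a median log2 fold change of -0.06, and 12 of 13 were so with upper-quartile scaling. Without control A, 2 of 13 were on the lower side, the median was 0.15 and the ratio of sums was 1.16.

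H4c4 (chr13:23673471-23673782, a locus as long as its coding sequence) gave 29.6% and 29.1% of the H4 sum in the knockdown libraries and 29.8% and 29.6% in the controls. It had 3051 and 2596 FPKM in the knockdown libraries, against 3511 and 2451 FPKM in the controls, a log2 fold change of -0.06 (SE 0.27, unadjusted p = 0.832). Those values stand for an estimated 1121 and 1228 fragments after knockdown and 1720 and 1176 in the controls. H4c6 had 1288 and 1498 FPKM in the knockdown libraries, against 1765 and 1253 FPKM in the controls, a log2 fold change of -0.10 (SE 0.26, unadjusted p = 0.712). In both genes control A was highest and control B lowest.

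H4c3 had 1447 and 969 FPKM after knockdown and 1284 and 1029 FPKM in the controls. H4c1 had 1216 and 939.8 FPKM after knockdown and 1259.9 and 879 FPKM in the controls. H4c8 had 1103 and 779 FPKM after knockdown and 909 and 693 FPKM in the controls. Here the 2 knockdown libraries differed from each other by more than the group means did. H4c2 had 571 and 628 FPKM after knockdown and 624 and 545 FPKM in the controls. H4c9 had 475 and 447 FPKM after knockdown and 642 and 452 FPKM in the controls. H4c12 had 274 and 289 FPKM after knockdown and 326 and 305 FPKM in the controls, a log2 fold change of -0.16 (SE 0.20, unadjusted p = 0.438). Of the last 3, the groups stood apart at H4c12 alone, and only narrowly.

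H4c14 of the chromosome 3 cluster had 427 and 379.7 FPKM after knockdown and 784 and 357 FPKM in the controls. H4c11 had 209.8 and 211 FPKM after knockdown and 501 and 195 FPKM in the controls. In both, control A stood far above the other libraries, which lay close together. H4f16 (chr6:136750074-136752952), the lone member on chromosome 6, had 246 and 185 FPKM in the knockdown libraries, against 178 and 129.6 FPKM in the controls, a log2 fold change of 0.49 (SE 0.26, unadjusted p = 0.114), with both knockdown libraries above both controls. H4c17 had 1.48 and 1.15 FPKM after knockdown and 7.75 and 1.13 FPKM in the controls, and H4c18 had 2.66 and 0 FPKM after knockdown and 0 and 2.03 FPKM in the controls. Those 2 rest on an estimated 7 fragments or fewer in any library.

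Linker histone genes gave a similar picture. H1 loci summed to 3196 and 3131 FPKM in the knockdown libraries, against 3755 and 3111 FPKM in the controls, a ratio of 0.921 that was 1.02 without control A. Of the 5 loci, 4 were on the lower side, with a median log2 fold change of -0.16, and without control A 2 of 5 were. H1f1 (chr13:23855537-23856283) was the most abundant, with 1631 and 1745 FPKM in the knockdown libraries, against 1890.1 and 1518 FPKM in the controls, a log2 fold change of -0.01 (SE 0.23, unadjusted p = 0.979). H1f5 had 849.9 and 759 FPKM in the knockdown libraries, against 935 and 912 FPKM in the controls, a log2 fold change of -0.20 (SE 0.20, unadjusted p = 0.361). The 2 knockdown values of H1f5 lay below a pair of nearly equal controls. H1f2 had 295 and 278 FPKM in the knockdown libraries, against 435 and 328 FPKM in the controls, a log2 fold change of -0.40 (SE 0.23, unadjusted p = 0.131). H1f3 had 392 and 339 FPKM after knockdown and 488 and 341 FPKM in the controls. H1f6, which encodes the testis linker histone H1t, had 28.0 and 9.58 FPKM after knockdown and 7.95 and 11.1 FPKM in the controls, with knockdown A alone set high.

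Control A stood high over the histone loci. That library was the highest of the 4 at 41 of 63 members (65.1%), where it was the highest at 29.7% of all loci tested. Among loci averaging 100 FPKM or more, it was the highest at 32 of 45 members (71.1%) and at 18.2% of all 885 such loci, and over those 885 it was the lowest library at 48.5%. The median difference in log2(FPKM + 1) between control A and control B was 0.42 over members and 0.02 over all loci tested. The same median was 0.00 for knockdown A and -0.02 for knockdown B, each against control B. By class, control A minus control B had a median of 0.57 in H3, 0.49 in H4, 0.47 in H2A, 0.32 in H1 and -0.05 in H2B. The medians of knockdown A and knockdown B against control B differed in sign between classes. They were -0.26 and -0.17 in H3, -0.17 and -0.21 in H2B, and 0.26 and 0.09 in H4. In H2A they were 0.00 and 0.15, and in H1 0.10 and -0.19. The sum over all 66 members was 30622 and 27989.8 FPKM in the knockdown libraries, against 35997 and 28433 FPKM in the controls. These medians are given with no test, since each compares single libraries.

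**Figure D4:**
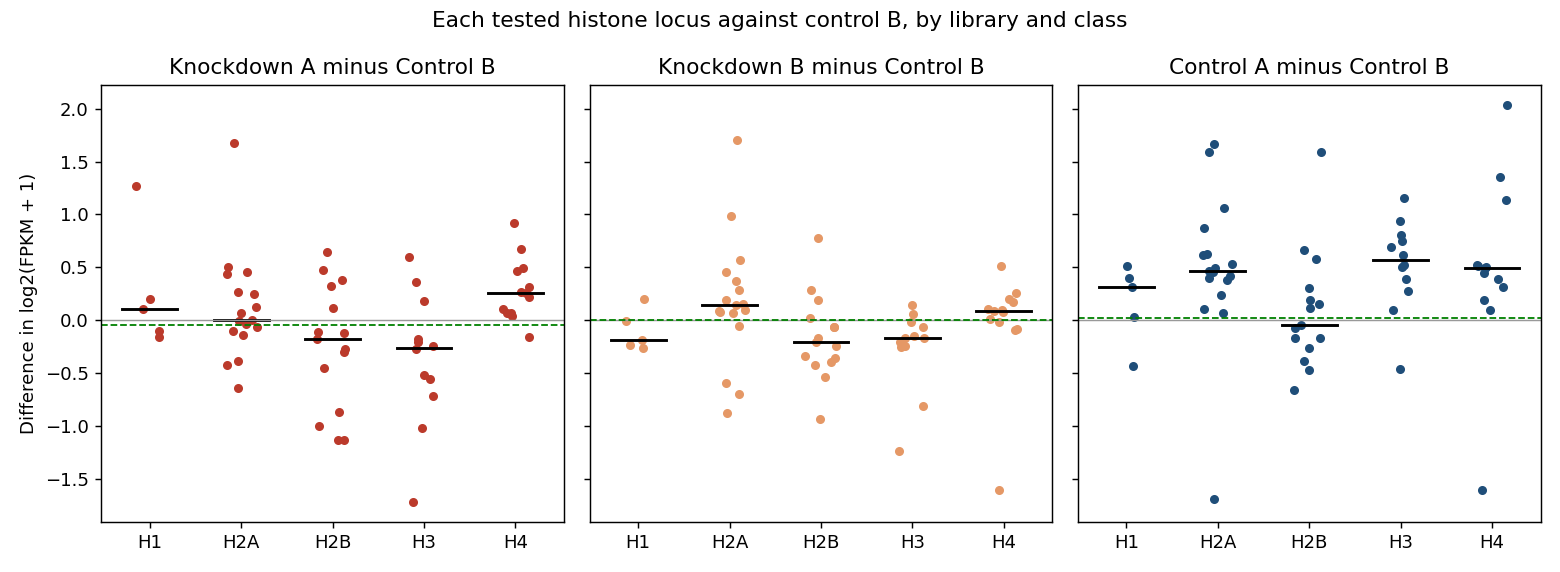
Difference in log2(FPKM + 1) between each other library and control B at each tested histone locus, by class, with points spread sideways for legibility. Black bars are class medians and the dashed line is the median of all loci tested; control A stands above 0 in H1, H2A, H3 and H4 (class medians 0.32 to 0.57) and not in H2B (-0.05).

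The excess of control A was present under each scaling tried and at both short and longer histone loci. With upper-quartile scaling the median difference was 0.44, and with quantile normalization it was 0.47. Control A was then highest at 47 and 43 of 63 members (74.6% and 68.3%), against 37.3% and 26.2% of all loci tested. Over all loci tested the median differences were 0.03 and -0.02. Members under 600 bases had a median difference of 0.47 (43 loci), and members of 600 bases or more had 0.36 (20 loci). The 232 other loci of 600 to 2000 bases with a coding RefSeq identifier had a median of 0.00, and control A was the highest library at 24.6% of them. Only 3 other such loci were under 600 bases, too few for a comparison at that length. Of the 10 listed RNAs without a poly(A) tail, 6 were tested. Their median control A minus control B was 0.25, and their median log2 fold change was 0.22 with none on the lower side. Rnu11, a minor spliceosomal RNA, had 190452 and 147520 FPKM after knockdown and 106369 and 108116 FPKM in the controls. Its log2 fold change was 0.64 (SE 0.41). Vaultrc5, a vault RNA, had 8005 and 4711 FPKM after knockdown and 4440 and 4407 FPKM in the controls. Its log2 fold change was 0.47 (SE 0.32), and neither RNA passed the test. What sets control A apart was not tested.

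The clusters were also compared by their medians. At chr13:23622913-23856283 (233 kb, 28 members) the 27 tested loci had a median log2 fold change of -0.10, and at chr13:21807632-21929399 (122 kb, 18 members) the 16 tested loci had -0.21. The 5 members at chr13:22127035-22135479 had a median of -0.23. The 10 members at chr3:96023839-96074115 (50.3 kb) had a median of -0.53, with 8 of 10 on the lower side. That cluster holds several members of low level whose fold changes have wide errors. The 2 members on chromosome 11, H2aw and H2bu2, had -0.49 and -0.51. The testis pair H2ac1 and H2bc1 lay on opposite sides of 0, at 0.80 and -0.55, with a median of 0.12. H4f16 on chromosome 6 was above 0, with 0.49.

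Histone genes differ little from one another in coding sequence, and that bears on which loci can be read. Windows of 50 bases along each coding sequence were looked up in all GENCODE M21 transcripts. In 10 genes every window occurred also in another gene, and their median level was 2.05 FPKM. The other 54 genes had a median level of 336 FPKM, and their levels did not simply follow sharing. H2bc21, with 0% of its windows shared, averaged 1.07 FPKM, and H2bc4, with 97.6% shared, averaged 436 FPKM. Among the 10, H2ac11 and H2aw stood higher than the rest, at 312 and 128 FPKM. The windows cover the coding part only. Longer locus models, such as those of H2bc4 (8282 bases) and H2aw (1990 bases), also hold sequence outside it, whose sharing was not scored. At 30 of the 66 loci the table's model was exactly as long as the coding sequence with its stop codon, so that the stem-loop end lay outside it. Levels of genes with shared sequence are therefore uncertain, since how fragments with several matches were counted is not given in the sources used here.

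**Figure D5:**
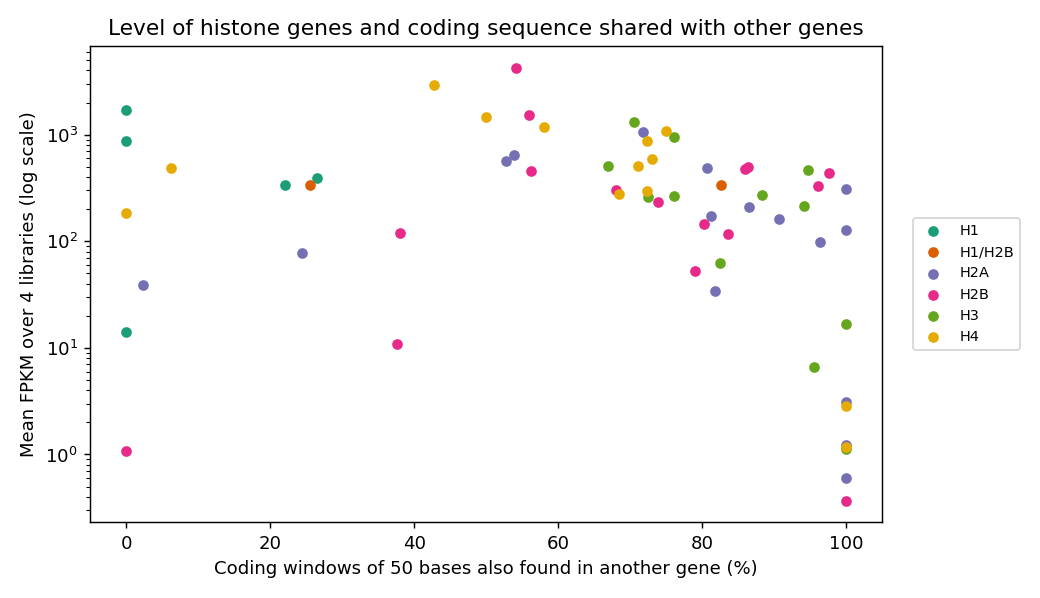
Mean FPKM over the 4 libraries (log axis) of each member gene against the share of its 50-base coding windows that occur in another gene. Of the 10 genes at 100%, 2 lie above 100 FPKM and the others are among the lowest of the family.

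Genes that make, process or carry these histones were measured alongside. None of those listed passed the test. Of 18 genes for histone mRNA synthesis and processing, 10 were on the lower side (median log2 fold change -0.03). Srrt, which links the cap-binding complex to histone mRNA 3′ ends, had 159.6 and 126 FPKM after knockdown and 71.1 and 114 FPKM in the controls, a log2 fold change of 0.65 (SE 0.30, unadjusted p = 0.0722). Lsm10, a U7 particle protein, had 26.2 and 8.09 FPKM after knockdown and 27.9 and 18.5 FPKM in the controls, a log2 fold change of -0.59 (SE 0.55, unadjusted p = 0.32). Zfp473, a zinc finger protein that works with the U7 particle, had 30.6 and 17.3 FPKM after knockdown and 17.1 and 14.8 FPKM in the controls, a log2 fold change of 0.51 (SE 0.35, unadjusted p = 0.196). Npat, the activator of the clusters, had 9.77 and 18.5 FPKM after knockdown and 17.9 and 19.9 FPKM in the controls, a log2 fold change of -0.46 (SE 0.37, unadjusted p = 0.26). Both knockdown libraries lay above both controls at Srrt and Zfp473, and the groups overlapped at Lsm10 and Npat.

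Of 20 S phase genes, 10 were on the lower side (median -0.01). Cdk2, the S phase kinase, had 22.4 and 44.2 FPKM after knockdown and 60.5 and 45.0 FPKM in the controls, a log2 fold change of -0.71 (SE 0.37, unadjusted p = 0.107). Cdt1, a factor that licenses replication origins, had 26.9 and 56.8 FPKM after knockdown and 72.7 and 52.2 FPKM in the controls, a log2 fold change of -0.64 (SE 0.40, unadjusted p = 0.158). Tk1, thymidine kinase, had 20.4 and 27.6 FPKM after knockdown and 30.8 and 44.8 FPKM in the controls, a log2 fold change of -0.63 (SE 0.31, unadjusted p = 0.0876). Of the 3, Cdk2 and Tk1 had both knockdown libraries below both controls. The median control A minus control B of this list was -0.13, where that of the histone members was 0.42. Of 17 histone chaperone genes, 5 were on the lower side (median 0.06). Hira, which deposits H3.3, had 14.7 and 13.4 FPKM after knockdown and 7.1 and 9.46 FPKM in the controls, a log2 fold change of 0.71 (SE 0.32, unadjusted p = 0.0653). Hat1, which acetylates new H4, had 303 and 312 FPKM after knockdown and 187 and 293 FPKM in the controls, a log2 fold change of 0.39 (SE 0.27, unadjusted p = 0.197). Chaf1b, a subunit of the CAF-1 complex that deposits new H3 and H4 behind the fork, had 38.3 and 50.2 FPKM after knockdown and 60.2 and 53.5 FPKM in the controls, a log2 fold change of -0.36 (SE 0.25, unadjusted p = 0.198). The first 2 lay above both controls in both knockdown libraries and the last below both.

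Histone variants come mostly from genes whose transcription is not confined to S phase and whose messages can be polyadenylated. Of the 12 listed, 11 were tested. Of these, 7 were on the lower side (median -0.16), and their median control A minus control B was 0.36. H1f10, a linker histone variant, had 0 and 10.1 FPKM after knockdown and 12.9 and 9.41 FPKM in the controls, a log2 fold change of -1.85 (SE 1.07, unadjusted p = 0.133), with the 0 of knockdown A deciding its fold change. H3f3b, a gene for H3.3, had 162 and 212 FPKM after knockdown and 341 and 252 FPKM in the controls, a log2 fold change of -0.66 (SE 0.26, unadjusted p = 0.0428). H2az1, which encodes H2A.Z, had 53.2 and 34.5 FPKM after knockdown and 66.1 and 50.2 FPKM in the controls, a log2 fold change of -0.42 (SE 0.30, unadjusted p = 0.217). H2ax had 275 and 270.1 FPKM after knockdown and 408 and 308 FPKM in the controls, a log2 fold change of -0.38 (SE 0.23, unadjusted p = 0.144). Of these, H3f3b and H2ax lay below both controls, with adjusted p = 0.918 each by limma. Of 9 embryonic stem cell markers 4 were on the lower side (median 0.03), with Klf4 at -0.84 ± 0.24, Esrrb at -0.44 ± 0.23 and Pou5f1 at 0.33 ± 0.26 (log2 fold change ± SE). Of the tested fibroblast and endoderm markers, Acta2 was at -1.48 ± 0.82, Thy1 at -1.19 ± 0.64, Cubn at -2.34 ± 0.55 and Dab2 at -1.41 ± 0.65 on the same scale, with a limma adjusted p of 0.918 for each.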

How the data were processed

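The authors deposited 1 table of FPKM per locus and library, made with Cufflinks and Cuffdiff on the mm9 build per the submitters' processing notes. The sources used here give neither versions nor the aligner, the treatment of fragments with several matches or the use of strand in counting. Total RNA was freed of ribosomal RNA, per the labels' protocols, primed with oligo-dT and random hexamers, marked for strand and sheared to 300 bp, about as long as a histone coding sequence. FPKM of such short loci depends on the length Cufflinks subtracts. Over 1509 single-exon loci the low values, 29 to 74 per library, fell in steps of 1 fragment over the locus length less 201 bases. Of those values 98.5% to 100% lay within 0.15 of a whole number. The step and the length were chosen for that closeness, so it is not a check of them. The steps gave the fragment and depth estimates, which cover no other error. A listed 0 may be an estimate that failed.

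Loci averaging 1 FPKM or more were tested on log2(FPKM + 1), which shrinks fold changes at low levels. The test was limma 3.58.1 in R 4.3.3 (group alone, eBayes with trend, two-sided), adjusted over all loci. A run on simulated data gave every locus the same length, longer than most histone loci, and so does not measure power at them. Tables were made in pandas 2.3.3 and numpy 2.4.6 and plots in matplotlib 3.10.9, under Python 3.11.15. Alternatives were other pseudocounts (0.1 and 0.01), filters (none and 5 FPKM), scalings, eBayes settings, the library letter as a block and leaving out each library. The gene group, lists and settings were chosen with earlier results of these data known. Every tested member is named with its values. Fold changes are given in full for those whose groups did not overlap and the 5 most abundant, and 2 to 4 genes of each other list by largest absolute log2 fold change. Locus coordinates are mm9. Promoter and transcript sequences are of GRCm38 (RefSeq GRCm38.p6 and GENCODE M21) and were never joined to mm9 positions. Symbols were matched through RefSeq identifiers. Of 70 symbols that fit the names, 64 had a locus.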

Additional observations from a re-analysis of the deposited data

How the results depend on the processing

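None of the histone loci passed the limma test under any alternative run. Of 428 values of 31 named members, 415 kept their direction. The 13 that did not belong to 6 members with small fold changes. The 415 are no check of direction. The eBayes settings, the block, the filters and leaving out loci that share an interval do not alter a fold change. Where the groups did not overlap, leaving out 1 library cannot reverse the sign. With upper-quartile scaling H2bc22 was -0.018, H2ac6 -0.21 and H2bc18 -0.25, and with quantile normalization H1f1 was 0.033 and H2bc18 -0.19. Leaving out 1 library gave ranges of -0.32 to 0.20 for H4c4, -0.16 to 0.15 for H1f1, -0.35 to 0.15 for H4c6 and -0.16 to 0.20 for H2bc18. The count of all loci called was 1 with no filter, 2 without the trend, 7 with the library letter as a replicate block, and 0 to 307 when 1 library was left out (0 without control A or without control B, 18 without knockdown A, 307 without knockdown B), and the cause was not tested. In those fits the lone library is assumed to vary like the others. Deviations of same-lettered libraries from their group means had a correlation of -0.07 over all loci and -0.39 over members. With 2 libraries per group, this cannot show whether the letters mark pairs. The block called 0 members. The members' median log2 fold change was -0.48 with upper-quartile scaling (all loci -0.27) and ran between -0.45 and 0.028 with 1 library left out, with 28 to 47 members on the lower side. With upper-quartile scaling the ratio of summed FPKM was 0.774 for H1, 0.771 for H2A, 0.783 for H2B, 0.631 for H3 and 0.796 for H4. With 1 library left out it ran between 0.842 and 1.02 for H1, 0.789 and 1.08 for H2A, 0.874 and 1.01 for H2B, 0.608 and 0.987 for H3, and 0.816 and 1.16 for H4, highest without control A in all classes but H2B, where it was highest without knockdown B. Leaving out loci that share an interval was not run for the sums, since no member shares one. Depth limits the lowest loci most, where 7 of the 44 members with a fragment estimate had under 20 fragments in every library.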
